A study of Mus musculus with 17 samples.

Results

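The 5S ribosomal RNA genes were followed in plasma cell-free RNA (cfRNA) of mice from the MHU-1 mission. The members are the 180 rows, of 49585 genes quantified in each library, whose names begin with n-R5s, and all 180 are annotated as rRNA genes in GENCODE M21 (GRCm38, also named mm10). All mice were wild type C57BL/6J mice of 13 weeks. The MG group was kept on the ISS in microgravity (6 libraries), the AG group on the ISS under artificial 1-G made by rotation (6 libraries), and the GC group on the ground (5 libraries). Each library came from 1 mouse, from 50 μl of plasma and 2.5 μl of RNA, with a kit for small RNA because the RNA was degraded. A low level in plasma can mean fewer cells releasing an RNA or less of that RNA per cell. Levels here are scaled to the mapped reads of a library, so a low level can also mean more of other RNAs. These cannot be told apart.

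5S rRNA is a small RNA of the large ribosomal subunit. Unlike the other cytoplasmic rRNAs it is made by RNA polymerase III, from genes of its own whose promoter lies inside the transcribed sequence, where the transcription factor TFIIIA binds. TFIIIA also binds the RNA itself. In mammals the 5S genes form a tandem array, and many 5S-like copies are scattered over the genome, most of which are regarded as pseudogenes. The free RNA joins the ribosomal proteins RPL5 and RPL11 in the 5S RNP before it enters the ribosome.

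Sequence likeness matters for these genes, since near-identical copies can share reads of 36 bases and a value for 1 copy then depends on how such reads were assigned. Positions and identities are from GENCODE M21 on GRCm38. The commonest sequence has 119 bases and is held by 25 copies of a tandem array on chromosome 8, and the identity of every other copy was counted against it.

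The 5 copies with the highest mean level all lie outside the array. The copy n-R5s194, on the plus strand of chromosome 3, overlaps no other annotated gene and has 95.8% identity to the commonest sequence. The copy n-R5s195, on the minus strand of chromosome 3, lies opposite an exon of Gm42781 and has 93.3%. The copies n-R5s2, on the plus strand of chromosome X, and n-R5s71, on the plus strand of chromosome 11, overlap no other gene and have 96.6% and 95.0%. The copy n-R5s193, on the plus strand of chromosome 4, is shorter, with 109 bases and 84.9% identity, and lies in an exon of Gm47301, annotated as a miRNA gene on the same strand. Among the copies with reads, n-R5s68, on chromosome 11, was the most divergent, with 82 bases and 63.0% identity.

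The copies differed in position and sequence. A tandem array of 41 copies, all on the minus strand of chromosome 8, spans 83261 bases, with a median of 1703 bases from one start to the next, inside an intron of Gm20388 on the opposite strand. The other 139 copies are dispersed, and the family as a whole is found on 21 chromosomes. The 180 copies hold 149 distinct sequences of 79 to 132 bases, and 81 copies have 119 bases. In the array the median identity to the commonest sequence was 100% and in the dispersed copies 75.6%.

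The level of a copy is its RPKM, reads scaled to its length in kilobases and to the mapped reads of the library. The deposited count was 0 for all 180 copies in every library, and the RPKM was not. The mapped reads of a library were derived from RPKM, with its smallest 5S value of RPKM × length taken as 1 read. With these totals all 434 RPKM values above 0 corresponded to whole reads (within 0.01 of a whole number). For the smallest value of each library this holds by construction. Of 17 counted genes with 1 length and at least 5 reads in every library, 16 gave back their deposited count in every library. Read numbers below are recovered from RPKM in this way. Mapped reads per library were 1596032 to 9796884, total deposited gene counts were 84657 to 277682, and reads on 5S copies were 1291 to 14246. The 5S reads made up from 0.0511% (MG 4, exact 95% interval 0.0497 to 0.0525) to 0.289% (AG 1, 0.283 to 0.295) of the mapped reads of a library. These intervals cover counting error only, taking each read as independent, and how PCR copies of 1 molecule were counted is not stated.

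Of the 180 copies, 43 had reads in at least 1 library, 137 were listed at 0 in all 17, and 14 were above 0 in all 17. Every one of the 41 array copies was listed at 0 in every library, and all reads assigned to 5S copies lay on dispersed ones. These zeros set no upper limit on the level of the array, since 37 of its 41 copies have no run of 36 bases, the length of a read, that is absent from all other copies. The plot of level against identity shows this split.

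**Figure D1:**
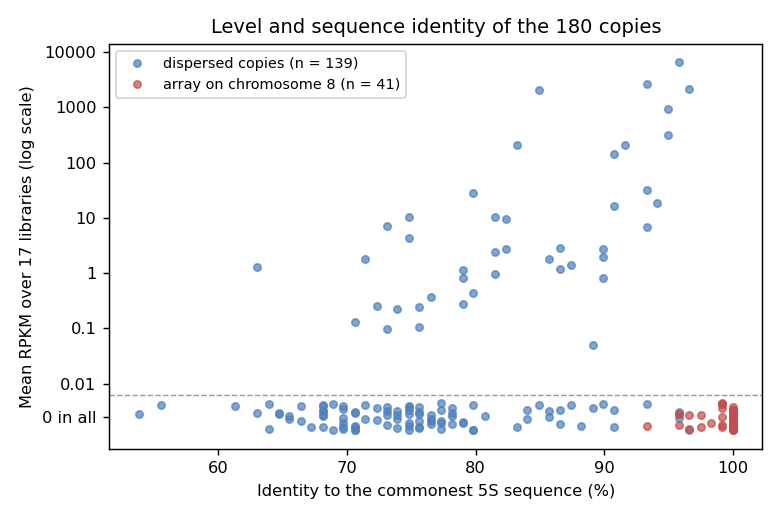
Mean RPKM over 17 libraries (log scale, with copies listed at 0 in all libraries spread below the dashed line) against identity to the commonest 5S sequence in %. Each point is 1 copy; the 41 array copies sit at 93.3% identity or more and are all listed at 0, while the 43 copies with reads are all among the 139 dispersed ones.

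The copies at 0 included every copy that cannot be told from another. A word is a run of 36 bases, the length of a read, and 37 copies have no word that is absent from all other copies. All 37 were listed at 0, as were all 36 copies whose whole sequence is held by another. With words of 24 bases the number without a word of their own was also 37. The 4 array copies that do have words of their own, from 39.3% to 64.3% of their words, were listed at 0 too. In total 100 of the 143 copies with words of their own were at 0, so a distinct sequence did not go with reads in every case. How reads with several matches were counted is not stated, and its part in these zeros was not tested.

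The zeros also went with the position of a copy relative to other genes. None of the 43 copies with reads overlaps a protein-coding gene on either strand, and 38 of them overlap no other gene. Of the 137 copies at 0, 109 overlap a protein-coding gene, namely all 41 array copies and 68 of the 96 dispersed copies at 0, and 27 of the 68 lie on the same strand as such a gene. Of the 71 copies that overlap no protein-coding gene 43 had reads and 28 were at 0. How reads in overlapping genes were assigned is not stated, so a 0 on such a copy cannot be read as absence of its RNA. The overlap was examined after the values were seen.

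Among the dispersed copies, those near the commonest sequence carried most of the level. The 17 dispersed copies with at least 90% identity held 84.4% of the summed mean RPKM, and 11 of them had reads. The 28 copies with 80% to 90% identity held 15.2%, and 15 had reads. The 94 copies under 80% held 0.372%, and 17 had reads. The other 6 of the 17 copies were listed at 0, among them n-R5s33 (96.6% identity), n-R5s151 and n-R5s185 (both 95.8%), these 3 being named after their values were seen. All 6 overlap a protein-coding gene (Lrch3, Npas1 and Tmem38b for these 3), and none of the 11 with reads does.

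A few copies held nearly all of the level. The mean RPKM over the 17 libraries was 6521 for n-R5s194, 2665 for n-R5s195, 2161 for n-R5s2, 2094 for n-R5s193 and 926 for n-R5s71. The copies n-R5s28, n-R5s156, n-R5s210 and n-R5s5 followed with 317, 213, 210.2 and 144, and these 9 copies together held 98.9% of the summed mean. The next 21 copies had means from 1.12 to 31.9, and the last 13 had means above 0 and under 1. The lowest of all, n-R5s42, n-R5s43 and n-R5s7, rested on 1 read each, in AG 3, AG 3 and MG 4. The most divergent copy with reads, n-R5s68, rested on 6 reads in 3 libraries.

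The evenness of the spread was described by the effective number of copies, the number of equally abundant copies that would give the same sum of squared shares of summed RPKM. It was 3.97 ± 0.436 in the AG group (SD, n = 6), 3.61 ± 0.454 in the MG group (SD, n = 6) and 3.44 ± 0.373 in the GC group (SD, n = 5), and between 2.78 (MG 6) and 4.37 (AG 1) over all libraries. The 3 groups overlapped. Without n-R5s193, an alternative chosen after seeing the data, it was 3.30 ± 0.0861 in AG, 3.17 ± 0.323 in MG and 3.08 ± 0.101 in GC, with the lowest AG library at 3.187 just above the highest GC library at 3.185, and MG overlapped with both. The copy n-R5s194 was the most abundant in all 17 libraries, with a share from 32.9% (AG 4) to 55.9% (MG 6). The 5 most abundant copies held 89.8% to 95.6% of the summed level of a library and the first 9 held 98.4% to 99.3%. Between 18 (GC 1) and 34 (AG 3) copies were above 0, and the 2 libraries are those with the fewest and the most 5S reads.

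**Figure D2:**
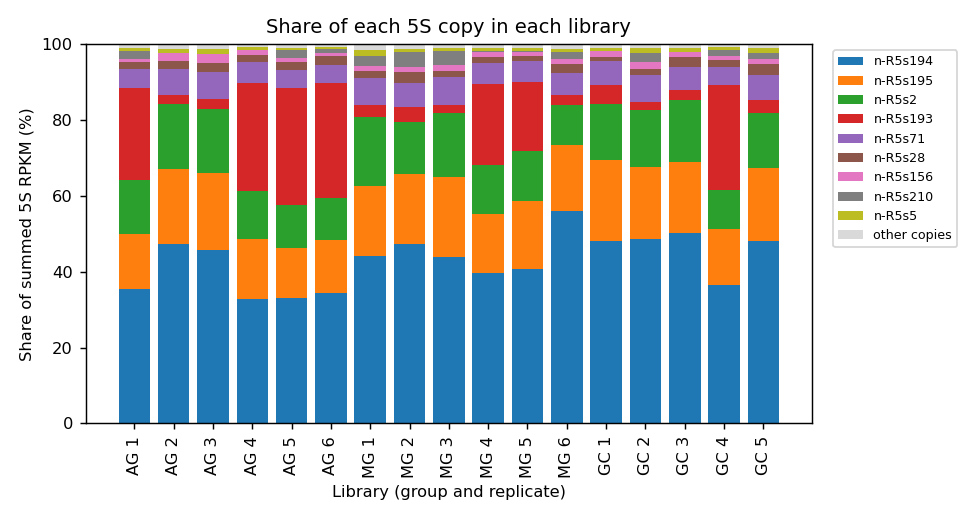
Share of summed 5S RPKM in % (vertical axis) held by each of the 9 most abundant copies and by all others, stacked, in each of the 17 libraries (horizontal axis). The share of n-R5s194 is the largest in every library, and the band of n-R5s193 is wide (18.1% to 30.8%) in 7 libraries and narrow (2.08% to 5.21%) in the other 10.

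The proportions between the main copies varied unequally over the libraries. Relative to n-R5s194, the level of n-R5s195 was 0.314 to 0.478 over the 17 libraries, a coefficient of variation of 9.29%. The same ratio varied by 11.8% for n-R5s71 and by 16.5% for n-R5s2, which ran from 0.185 (MG 6) to 0.415 (MG 1). MG 6 had the lowest ratio of all libraries for these 3 copies. The ratios of n-R5s5, n-R5s156 and n-R5s28 varied by 22.2%, 26.3% and 26.5%. For n-R5s193 it ran from 0.0429 (GC 2) to 0.933 (AG 5), a coefficient of variation of 105%. For n-R5s210, on chromosome 1, it ran from 0.000398 (GC 3) to 0.0819 (MG 2), a coefficient of variation of 93.6%. The copy n-R5s210 was singled out after its values were seen.

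**Figure D3:**
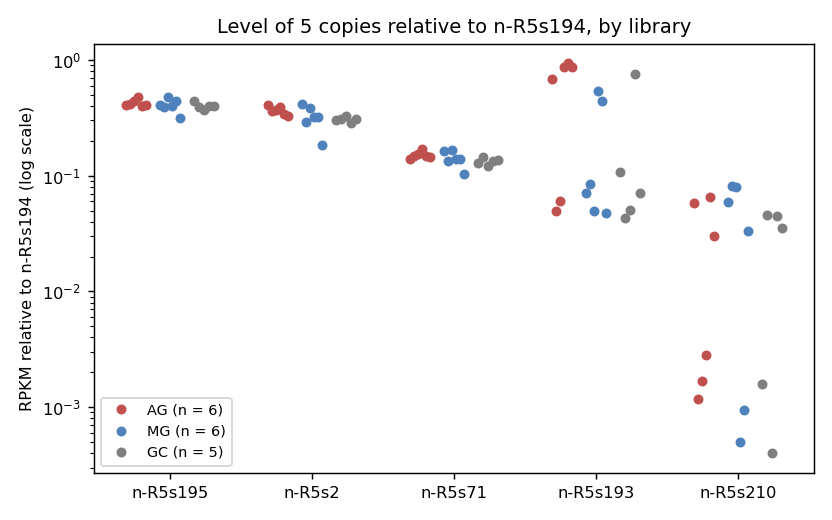
RPKM of 5 copies divided by the RPKM of n-R5s194 in the same library (log scale), with 1 point for each of the 6 AG, 6 MG and 5 GC libraries. The points of n-R5s195, n-R5s2 and n-R5s71 span at most 2.24-fold over the libraries, while those of n-R5s193 and n-R5s210 fall into a high and a low set within each group.

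Both n-R5s193 and n-R5s210 were split into high and low libraries within every group. The share of n-R5s193 in the summed level was 18.1% to 30.8% in AG 1, AG 4, AG 5, AG 6, MG 4, MG 5 and GC 4, and 2.08% to 5.21% in the other 10 libraries. The share of n-R5s210 was 1.03% to 3.87% in AG 1, AG 5, AG 6, MG 1, MG 2, MG 3, MG 6, GC 2, GC 4 and GC 5, and 0.0196% to 0.0932% in the other 7. The high sets differed, with AG 4, MG 4 and MG 5 high for n-R5s193 and low for n-R5s210. The labels give no batch or date, and no split of the libraries by a technical label was possible.

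The summed level, which depends least on how reads were divided among copies, was higher in most AG libraries than in the others. The summed RPKM was 24813, 24332, 22281, 23184, 24629 and 13877 in AG 1 to AG 6. It was 9121, 10907, 13574, 4378, 8240 and 18160 in MG 1 to MG 6, and 6844, 12281, 10690, 16782 and 18055 in GC 1 to GC 5. Of the AG libraries 5 stood above every MG and GC library, and AG 6 stood within the range of both groups. The means were 22186 ± 4184 (SD, n = 6) for AG, 10730 ± 4743 (SD, n = 6) for MG and 12930 ± 4571 (SD, n = 5) for GC.

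**Figure D4:**
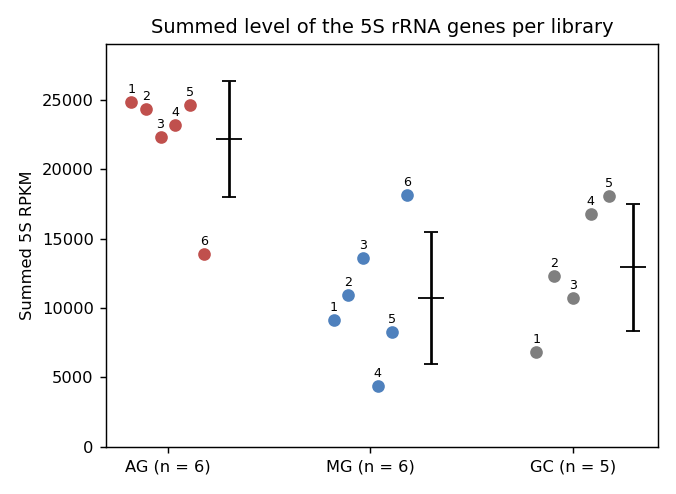
Summed RPKM of the 180 copies (vertical axis) in each AG, MG and GC library, with replicate numbers, and the mean ± SD of each group beside the points. AG replicates 1 to 5 lie between 22281 and 24813, above all other libraries, and AG replicate 6 lies at 13877.

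The question of the first comparison, MG against AG, is what microgravity changes when both groups are in flight. The fitted level of the 5S sum was 0.450 of the AG level in MG, a difference of -1.15 on the log2(RPKM + 1) scale (SE 0.274, 95% interval -1.72 to -0.58), beside a median of 0.026 over all features. It did not pass the test across features, with an adjusted p of 0.890 in limma, and none of the 4512 features did (background 0%), while 226 of 4542 genes had an unadjusted p under 0.05 in the same fit with copies kept apart. Without AG 6 the difference was -1.28 (adjusted p = 0.419, limma). Over the alternatives run the adjusted p ranged from 0.239 to 0.911, and with single libraries left out from 0.275 to 0.992.

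In MG against GC, the effect of flight with microgravity, the 5S sum differed by -0.32 (SE 0.288, 95% interval -0.92 to 0.28, adjusted p = 0.845 in limma), and the value was 0.21 when RPKM was scaled to a common trimmed mean, so the data gave no direction. None of the 4512 features passed in this pair (background 0%), and 264 of 4542 genes had an unadjusted p under 0.05. In AG against GC, the effect of flight under artificial gravity, the 5S sum was 1.78 times the GC level, a difference of 0.83 (SE 0.288, 95% interval 0.23 to 1.43), with an adjusted p of 0.513 in limma, and 1 of 4512 features passed (background 0.0222%). The AG libraries enter 2 of these comparisons and the GC libraries enter 2, so the 3 results are not independent.

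The sizes of these differences depended on which rows were counted as 5S. With the reads of Tmem38b, a gene that holds a 5S copy in its last exon, added to the 5S reads, an alternative chosen after seeing the data, the difference in MG against AG was -0.74 per mapped read and -1.03 with TMM in edgeR (adjusted p = 0.457 and 0.257) and -0.86 in limma (adjusted p = 0.472). In AG against GC it was 0.48 per mapped read and 0.75 with TMM in edgeR (adjusted p = 0.457 and 0.361) and 0.49 in limma (adjusted p = 0.463). In edgeR per mapped read without Tmem38b the values were -1.03 and 0.77. Reads of Tmem38b outnumber the 5S reads in every library, so most of such a sum is Tmem38b.

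Markers of platelets and leukocytes differed in median between the groups, with overlapping ranges, and no test was made of the marker sums. The summed level of 6 platelet markers, all 6 with counts, was 147 to 2156 CPM (counts scaled to the total count) in AG (median 1178), 551 to 5083 in MG (median 3088) and 574 to 5280 in GC (median 3993). Leukocyte markers, 6 of 7 with counts and Cd3e, a T cell marker, at 0, were at 84.02 to 173 in AG (median 116), 112 to 387 in MG (median 275) and 76.9 to 331 in GC (median 211). Red cell markers, 7 of 7 with counts, had medians of 9513, 12990 and 9520, and skeletal muscle markers (5 of 5 with counts) had medians of 24.5, 29.5 and 46.1. Liver markers, 5 of 5 with counts, were at 0 to 1034 in AG (median 41.6), 8.63 to 1555 in MG (median 214) and 51.3 to 83.3 in GC (median 70.4). Tmem38b took a mean of 64.3% of the total count in AG, 52.3% in MG and 51.2% in GC, which lowers the CPM of all other genes most in AG. The part of these cells in the 5S level was not tested.

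Copy by copy, 31 of the 180 copies passed the filter of RPKM above 0 in at least 5 libraries and were tested among 4542 genes. No copy was called in limma at an adjusted p under 0.05 in any pair, beside a background of 0% in MG against AG, 0% in MG against GC and 0.022% in AG against GC. At an unadjusted p under 0.05 there were 12 copies in MG against AG, all with lower values in MG, beside 4.98% of all genes in either direction and 1.01% lower in MG. The corresponding number was 1 copy in MG against GC, with a lower value in MG, beside 5.81% and 3.3%, and 8 copies in AG against GC, all with higher values in AG, beside 8.61% and 1.1% higher in AG. These copies share sequence and libraries, so the number of copies is not a number of independent tests. The median log2 difference of the 31 copies was -0.94 in MG against AG, -0.24 in MG against GC and 0.62 in AG against GC, beside 0.026, -0.0093 and -0.030 over all genes tested. The 31 copies are not the family, since the filter is passed more readily by a copy that is high in 1 group.

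The means of n-R5s194, n-R5s195, n-R5s2 and n-R5s71 were highest in AG and lowest in MG, while the mean of n-R5s210 was highest in MG (246, beside 206 in AG and 172 in GC). In n-R5s194 the RPKM was 8774, 11534, 10212, 7623, 8140 and 4769 in AG 1 to AG 6. It was 4036, 5150, 5965, 1732, 3347 and 10153 in MG 1 to MG 6, and 3296, 5961, 5361, 6136 and 8671 in GC 1 to GC 5. The groups overlapped, since MG 6 lay above 4 of the AG libraries. The log2 difference of n-R5s194 in MG against AG was -0.90 (SE 0.327, adjusted p = 0.884, limma). For n-R5s195 the means were 3610 ± 1011 (SD, n = 6) for AG, 1985 ± 920.4 (SD, n = 6) for MG and 2348 ± 735 (SD, n = 5) for GC. For n-R5s2 they were 3130 ± 918, 1495 ± 609 and 1797 ± 588, and for n-R5s71 1281 ± 352, 684 ± 312 and 788 ± 279, with the same n. None of the 3 copies passed the test in any pair.

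The copy n-R5s193 had the largest fitted differences of the 31 tested copies in MG against AG and in AG against GC, and not in MG against GC. Its RPKM was 6017, 577, 615, 6567, 7591 and 4181 in AG 1 to AG 6. It was 284, 436, 296, 943, 1491 and 480.3 in MG 1 to MG 6, and 356, 256, 273, 4611 and 617 in GC 1 to GC 5. Each group therefore held libraries of both sets, 4 of 6 being high in AG, 2 of 6 in MG and 1 of 5 in GC. The log2 difference was -2.35 in MG against AG (SE 0.796, adjusted p = 0.884, limma) and 2.23 in AG against GC (SE 0.835, adjusted p = 0.524, limma). With this copy left out of the sum, an alternative chosen after seeing the data, the difference of the summed level was -0.95 in MG against AG (adjusted p = 0.890) and 0.63 in AG against GC (adjusted p = 0.602) in limma.

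In MG against AG the smallest p belonged to 3 scarce copies, n-R5s13, n-R5s10 and n-R5s60. In n-R5s13 on chromosome X the recovered reads were 1, 4, 4, 2, 1 and 6 in AG 1 to AG 6, 1, 1, 0, 0, 1 and 0 in MG, and 0, 0, 1, 1 and 1 in GC. Its RPKM did not overlap between AG, from 2.91 to 7.77, and MG, at most 2.85, or GC, at most 2.63. It was the only copy of the 31 without overlap in either pair, beside 0.022% of all genes lower without overlap in MG against AG and 0.0881% higher in AG against GC. No copy was without overlap in MG against GC, beside 0.176% of genes in either direction. The gap between the groups is under the RPKM of 1 read in any library. The adjusted p of n-R5s13 was 0.848 in MG against AG and 0.420 in AG against GC (limma).

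The copy n-R5s10 on chromosome X had 0, 1, 2, 2, 2 and 1 reads in AG, 1 read in MG 6 and none in the other MG libraries, and none in GC. The copy n-R5s60, on chromosome 12, had 1, 2, 5, 1, 0 and 1 reads in AG, 1 read in MG 4 and none in the other MG libraries, and 1 read in each of GC 3 and GC 5. With at most a few reads a library these copies give no fold change that could be read. Their adjusted p in MG against AG was 0.848 and 0.884 (limma). In AG against GC the smallest p belonged to n-R5s10, n-R5s13 and n-R5s193, and n-R5s10 (adjusted p = 0.252) passed the threshold when AG 1, the only AG library without a read on it, was left out (adjusted p = 0.0191, limma). It was then the only gene called of 4332 (0.0231%), and it passed the filter on low values through AG, where 5 of its 6 libraries with reads lie.

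In MG against GC the smallest p belonged to n-R5s155, n-R5s96 and n-R5s60, with adjusted p of 0.803, 0.821 and 0.823 in limma. The copy n-R5s155, on chromosome 7, had 0, 0, 2, 0, 1 and 2 reads in MG 1 to MG 6 and 1, 1, 3, 3 and 1 in GC 1 to GC 5. The copy n-R5s96, on chromosome 8 outside the array, had 0, 2, 0, 6, 1 and 0 reads in MG and 1 read in GC 4 only among the GC libraries.

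One protein-coding gene stood beside the family in sequence. The copy n-R5s185, on the plus strand of chromosome 4, lies whole inside exon 6 of 6 of Tmem38b, on the same strand, in a part annotated as untranslated. It has 95.8% identity to the commonest sequence, of which 70 bases in a row are shared, and the 84 words of n-R5s185 in Tmem38b include words of 52 copies. While n-R5s185 was listed at 0 in every library, Tmem38b, which encodes a cation channel of the endoplasmic reticulum, had 20928 to 203080 counts in a library, 24.7% to 74.4% of all deposited counts. The reads of Tmem38b were 9.91 to 17.05 for each 5S read, with a mean of 11.7 ± 2.29 (SD, n = 6) for AG, 14.2 ± 1.33 (SD, n = 6) for MG and 14.9 ± 1.98 (SD, n = 5) for GC. Where in Tmem38b its reads lie was not analysed here, and Tmem38b was named after its values were seen.

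Tmem38b was also the gene most like the summed 5S level over libraries. The measure was the Pearson correlation of log2 values after subtraction of the group means, over 17 libraries, among the 336 genes above 0 in all of them, and Tmem38b had 0.938. It was followed by Snord104 with 0.832, Gm24573 with 0.818, Taf1d with 0.810 and Hnrnpl with 0.804, of which Gm24573 is annotated as rRNA and shares 8 words with 5S copies. With reads scaled to mapped reads (RPM) and no subtraction of group means, r was 0.936 and Spearman's rho 0.892 (n = 17), and r was 0.893 without the 2 libraries farthest from the median of Tmem38b. Spearman's rho was 0.486 within AG, 1.0 within MG (n = 6 each) and 0.9 within GC (n = 5), with r of 0.841, 0.9965 and 0.9355. The libraries AG 1 to AG 5 had 2637 to 2888 5S RPM while their Tmem38b ran from 28239 to 42989 RPM. These points share the mapped reads of a library as their scale, and no p is given because the genes were chosen for their likeness.

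**Figure D5:**
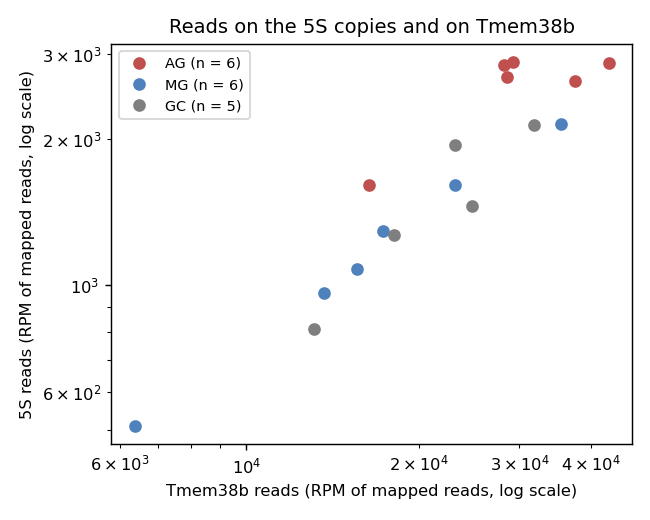
Reads on all 5S copies against reads on Tmem38b, both in RPM of mapped reads (log scales), with 1 point per library. From MG 4 at 6388 (Tmem38b) and 511 (5S) the points rise together, while AG 1 to AG 5 lie at 2637 to 2888 5S RPM over a Tmem38b range of 28239 to 42989.

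Other rows outside the name rule also hold 5S sequence. Of 17 further rRNA rows that share at least 1 word with the 180 copies, 13 were listed at 0 in all libraries, and all 7 that hold the whole commonest sequence, Rn5s among them, were at 0. Of the 7 protein-coding genes that share a word, the 6 other than Tmem38b had at most 27 counts over all libraries.

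The 5S level was also set against that of other structural RNAs in the same library. The RPKM of Rn7sk, a polymerase III RNA that restrains transcription elongation, was 38.3 ± 25.2 (SD, n = 6) for AG, 83.3 ± 48.2 (SD, n = 6) for MG and 114 ± 37.8 (SD, n = 5) for GC. The summed 5S level was 274 to 1193 times that of Rn7sk in AG, 94.2 to 229 times in MG and 88.2 to 128 times in GC, so that AG did not overlap with the other groups in this ratio. The RPKM of Rpph1, the RNA of RNase P, was 481 ± 244 (SD, n = 6) for AG, 1142 ± 634 (SD, n = 6) for MG and 1286 ± 670.1 (SD, n = 5) for GC, and the ratio was 31.4 to 111 in AG, 4.53 to 24.8 in MG and 2.88 to 22.4 in GC, again without overlap. Both denominators had their lowest mean in AG. In AG against GC the log2 difference was -1.44 for Rpph1 and -1.66 for Rn7sk beside 0.83 for the 5S sum, and in MG against AG it was 1.14 and 1.019 beside -1.15, none of them past the limma test. No test was made of these ratios or of those below, and the share of all genes whose ratio to the 5S sum separates the groups was not counted.

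For Rmrp, the RNA of RNase MRP, the ratio was 1359 to 19449 in AG, 327 to 1068 in MG and 211 to 1422 in GC, and for Rn7s2, a row of signal recognition particle RNA, 44.9 to 88.4, 20.9 to 43.8 and 10.2 to 99.2, so that AG and MG did not overlap while AG and GC did. For the rest AG overlapped with both other groups. The ratio was 1.78 to 4.66 in AG, 0.937 to 2.68 in MG and 0.298 to 2.96 in GC for Rn18s-rs5, a row of small-subunit rRNA. For n-R5-8s1, the 5.8S rRNA row, it was 4.35 to 17.6, 2.30 to 8.47 and 0.887 to 10.3. For Rn7s1, another row of signal recognition particle RNA, it was 4.59 to 16.2, 2.76 to 5.94 and 1.73 to 11.1. For Vaultrc5, a vault RNA, it was 8.09 to 26.8, 3.14 to 14.7 and 4.33 to 32.6. The Y RNA Rny1 was the most abundant of the list, with a mean RPKM of 52916, and the 5S sum was 0.0335 to 1.21 times its level over all libraries. Over all libraries the ratio was 1.03 to 86.5 for mt-Rnr1, 0.670 to 34.8 for mt-Rnr2 (both mitochondrial rRNAs) and 1.44 to 39.8 for Rny3, a Y RNA. None of these RNAs passed the limma test in any pair, with adjusted p of 0.538 or more, and Rn4.5s was not analysed here.

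The mRNAs of proteins that make, bind or carry 5S rRNA were nearly all too scarce to test. All 34 such genes were listed (35 symbols, of which Ro60 is another name of Trove2), 31 had any count, and only Rpl5 passed the filter on counts. Rpl5, which encodes the ribosomal protein that carries 5S rRNA, was at 347 ± 149 CPM after TMM scaling (SD, n = 6) for AG, 607 ± 382 (SD, n = 6) for MG and 869 ± 763 (SD, n = 5) for GC. It was not called in edgeR in any pair (adjusted p of 0.587 in MG against AG, 0.994 in MG against GC and 0.399 in AG against GC), beside a background of 0%, 0% and 1.47% of 272 genes. At an unadjusted p under 0.05 it passed in AG against GC and in no other pair, beside 13.2%, 4.41% and 11.8% of genes in the 3 pairs. Without TMM it was called in MG against AG (log2 difference 1.59, adjusted p = 0.0284) and in AG against GC (-1.88, adjusted p = 0.0421) in edgeR, where 48 and 9 of 272 genes were called. Its partner Rpl11 had 45 counts in all, Gtf3a, which encodes TFIIIA, had 1, and the 24 polymerase III subunits and factors had at most 10 each. The RNA-binding genes Trove2, whose product binds misfolded 5S rRNA, and Ssb, which encodes La, had 72 and 13.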

How the data were processed

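Plasma cfRNA of 17 mice (6 AG, 6 MG and 5 GC) was sequenced in paired reads of 36 bases. The authors used CLC Genomics Workbench with the mm10 genome and deposited for 49585 genes a count, an RPKM and a TPM value. The deposited count is not normalized, the RPKM was adjusted by the authors for the length of the gene and the mapped reads, and the deposited TPM was not used here. Trimming, strand and the treatment of reads with several matches are not given in the sources used here, so rows of near-identical copies can share reads.

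Counts were 0 for 579 genes with an RPKM above 0, among them the 43 copies of 5S with reads. Reads were recovered as RPKM × length × mapped reads, with lengths from GENCODE M21 and mapped reads derived from the smallest 5S value of each library. Of 3274 such values 99.4% were whole within 0.01. The 530 genes with all values whole entered the alternatives on recovered reads.

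The main test was limma 3.58.1 (R 4.3.3) on log2(RPKM + 1), which understates changes of low genes, for genes above 0 in at least 5 libraries, with all 17 libraries in 1 fit, no covariate and Benjamini-Hochberg adjustment over all genes tested. It was repeated with the 180 rows replaced by their sum. Partner genes were tested by edgeR 4.0.16 (quasi-likelihood, TMM). The tests were checked on simulated data. Evenness and ratios have no test. The sequences of the copies are not reported here. The members and lists were chosen with earlier results of these data known. Named are the 5 copies with the highest and the 3 with the lowest mean above 0, the 3 with the smallest p in each pair, the most divergent copy with reads, the structural RNAs, and the 5 genes most like the sum. No library was a duplicate of another in its group (chi-square of counts per degree of freedom of at least 5.46). The labels give 1 library per mouse. Alternatives covered the pseudocount, filter, scaling, test, libraries in the fit, a replicate block and each library left out.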

Additional observations from a re-analysis of the deposited data

Results flagged for a closer look

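Of 45 groups of values examined (15 quantities in 3 groups), 7 held a library far from the others by Dixon's criterion, and chance flags about 1 in 20 groups. In AG, replicate 6 was the lowest in summed 5S RPKM, at 13877 with the next at 22281, and in the percentage of mapped reads on 5S copies, at 0.161 with the next at 0.264. As a share of the summed RPKM of all genes, itself low in that library at 76231, its 5S level was the highest of all libraries, at 18.2%. In GC, replicate 4 was the highest in n-R5s193, with an RPKM of 4611 beside 617 for the next, and in the effective number of copies, at 4.09 beside 3.38. The other flags rest on few reads. In MG, replicate 6 had an RPKM of 2.14 on n-R5s10 and replicate 4 had 0.858 on n-R5s60, each from 1 read, with 0 in all other MG libraries. In GC, replicate 4 had 1.48 on n-R5s96, also from 1 read, with 0 in the other GC libraries.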

How the results depend on the processing

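The summed 5S level kept its direction and stayed above an adjusted p of 0.05 under all alternatives run in MG against AG (-1.32 to -0.74) and in AG against GC (0.48 to 1.10). In MG against GC the values ran from -0.37 to 0.21. The value of 0.21 (adjusted p = 0.949, limma) came from RPKM scaled to a common trimmed mean, under which 21 of the 31 tested copies were higher in MG and 10 lower, against 10 and 21 in the main fit; the cause was not tested. With each library left out, the range was -1.33 to -0.92 in MG against AG, -0.53 to -0.086 in MG against GC and 0.62 to 0.97 in AG against GC. No copy was called under any alternative, except 1 (range 0 to 1) in AG against GC without AG replicate 1, which was n-R5s10. Under edgeR without TMM 1 partner gene was called in each of MG against AG and AG against GC, Rpl5, with log2 differences of 1.59 (adjusted p = 0.0284) and -1.88 (adjusted p = 0.0421), where 48 and 9 of 272 genes were called; the cause was not tested. Without n-R5s193, chosen after seeing the data, the effective number of copies was 3.30 in AG, 3.17 in MG and 3.08 in GC, since that copy no longer adds to it, and AG and GC no longer overlapped. Also added after seeing the data, sums without n-R5s193 and n-R5s210 passed no threshold, nor did sums with the reads of Tmem38b, which gave the values nearest 0 in MG against AG (-0.74) and AG against GC (0.48), both in edgeR per mapped read; scaling RPKM to a common trimmed mean also gave -0.74 in MG against AG.

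The main fit did not pair libraries by replicate number, and whether the numbers pair them was not settled, since no reference from libraries of different numbers is given here. Correlations of deviations between libraries of the same number exceeded 0.1 in 3 of 6, 3 of 5 and 2 of 5 pairs, and with a replicate block the summed level differed by -1.15, -0.34 and 0.81 (adjusted p = 0.771, 0.842 and 0.489, limma) and no copy was called. The median log2 difference of all genes in MG against AG, MG against GC and AG against GC was 0.296, -0.084 and -0.387 on recovered reads with TMM and 0.565, -0.307 and -0.891 per mapped read, against 0.026, -0.0093 and -0.030 in limma on RPKM. Depth limits the 34 copies with a mean RPKM under 100, since only 9 to 26 copies had at least 3 reads in a library.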
